A study of Mus musculus with 15 samples.

Results

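The standard proteasome genes of MC38 tumours were described across 4 treatments. Members were taken from the deposited table of normalised values by gene symbol, as every symbol that starts with Psma, Psmb, Psmc, Psmd, Psme, Psmf or Psmg followed by a digit. The 3 constitutive catalytic subunits Psmb5, Psmb6 and Psmb7, the 3 inducible ones Psmb8, Psmb9 and Psmb10, and the inducible cap subunits Psme1 and Psme2 were left out by that rule. This gave 41 of the 17712 genes in the table. Of these, 38 encode subunits, chaperones or regulators of the standard proteasome, and 3 lie outside the standard complex (Psma8, Psmc3ip and Psme2b). The 38 are the 11 core subunits (Psma1 to Psma7 of the alpha ring and Psmb1 to Psmb4 of the beta ring), the 17 subunits of the regulatory particle, 7 assembly chaperones and 3 other regulators (Psme3, Psme4 and Psmf1). The same rule also matched Psmb11 and 4 pseudogenes in the gene annotation, which are not analysed here.

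The tumours came from MC38, a mouse colon carcinoma cell line, implanted under the skin of C57BL/6 mice and injected directly at a size of about 5 mm. BO-112 is poly I:C, a synthetic double-stranded RNA, packed with a polymer carrier, and DMXAA is a small molecule that activates mouse STING, the adaptor of cytosolic DNA sensing. The groups were BO-112 at 50 µg (n = 4 tumours), DMXAA at 100 µg (n = 4), BO-112 at 50 µg with DMXAA at 100 µg (n = 4), and vehicle alone (n = 3), which was PBS with 5% DMSO and 5% glucose. Every injection had a volume of 100 µL, and polyadenylated RNA was sequenced from the tumours after 24 h. All mice were of the same strain and carried the same line, age and sex are not given in the labels used here, and the labels call the tumours of a group biological replicates without saying whether animals were shared, so p-values measure the spread between these libraries.

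The proteasome is the barrel-shaped protease that degrades proteins tagged with ubiquitin. Its core is a stack of alpha and beta rings with the cutting sites inside, and the regulatory particle caps the core, binds the ubiquitin chain, removes it, and threads the unfolded protein into the barrel. Dedicated chaperones build both parts, and the particle and core genes are known to be transcribed together in mammalian cells, in part under the transcription factor NRF1 (Nfe2l1). In interferon-exposed tissue the inducible catalytic subunits replace the constitutive ones in some cores, which changes the peptides shown to T cells, while the subunits described here are kept in either form.

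Libraries held 12725316 to 19660511 reads, and no member of the 38 had fewer than 145 reads in any library. DMXAA 2 and DMXAA 3 (the libraries are named by group and replicate number) stood apart from the other 13. Genes in the shortest 10% of transcripts deviated by a median log2 difference of 1.14 and 0.49 in these 2 libraries, and genes in the longest 10% by -0.70 and -0.46, against -0.27 to 0.07 and -0.05 to 0.22 elsewhere. Skeletal muscle markers summed to 654 CPM (reads scaled to library size) in BO-112 1, 1089 and 547 CPM in DMXAA 1 and DMXAA 3, and 222 CPM in vehicle 2, against at most 54.7 CPM in the other libraries. The 10 neutrophil markers summed to 531 to 633 CPM with BO-112, 123 to 286 CPM with DMXAA, 241 to 484 CPM with both agents and 144 to 192 CPM with vehicle. Clec4e alone gave 275 to 329 CPM of the BO-112 sums. Only Clec4e and Lcn2 had their highest library among the BO-112 tumours. S100a8 had 4.02 to 8.26 CPM with BO-112, 2.75 to 19.0 CPM with DMXAA and 4.35 to 35.0 CPM with both agents. For S100a9 these were 7.48 to 17.4, 3.74 to 47.9 and 9.55 to 74.9 CPM, so the sum does not rank the groups for every marker. The 3 measured epithelial markers for the carcinoma cells were low, with sums of 6.67 to 11.7 CPM with BO-112, 14.6 to 40.5 CPM with DMXAA, 9.38 to 27.2 CPM with both agents and 27.7 to 85.4 CPM with vehicle, of which Cdh1 made up 4.94 to 82.6 CPM. Cdh1 and Epcam were lower in every BO-112 tumour than in every vehicle tumour. Krt19, at most 1.87 CPM in any library, went the other way, with 0.233 to 1.56 CPM against 0.089 to 0.151 CPM. Epcam was at 0 in 1 library, and Krt8 and Krt18 were not analysed here. In bulk tumour RNA, fewer cells of a type and less RNA per cell cannot be told apart.

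Levels per annotated length of transcript set the core above the particle, and both far above the chaperones. Over all 15 libraries the core genes had a median of 160.5 CPM per kb, the particle genes 101 CPM per kb and the chaperones 18.8 CPM per kb. In the alpha ring, which forms the gate of the barrel, the range ran from Psma3 at 67.4 to Psma7 at 267 CPM per kb. Among the structural beta subunits it ran from Psmb1 at 111 to Psmb3 at 233 CPM per kb. These 2 rings overlapped in level, and no beta gene lay below the lowest alpha gene.

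In the base of the particle, the 6 ATPases that unfold substrates lay between Psmc6 at 69.7 and Psmc5 at 142 CPM per kb. The other base genes lay between Psmd1, a large scaffold, at 56.4 and Psmd4, a receptor for ubiquitin chains, at 155 CPM per kb. The lid, which carries the enzyme that removes ubiquitin, ranged from Psmd11 at 49.1 to Psmd8 at 148 CPM per kb. The chaperones of the alpha ring ranged from Psmg1 at 18.0 to Psmg4 at 29.8 CPM per kb, and those of the base from Psmd5 at 17.5 to Psmd10 at 30.2 CPM per kb. Every chaperone was thus below every core and particle gene. Among the other regulators, Psmf1, a protein that binds the core, had 9.60 CPM per kb, Psme4, a large nuclear cap, had 26.8, and Psme3, the nuclear cap related to Psme1 and Psme2, had 86.6.

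**Figure D1:**
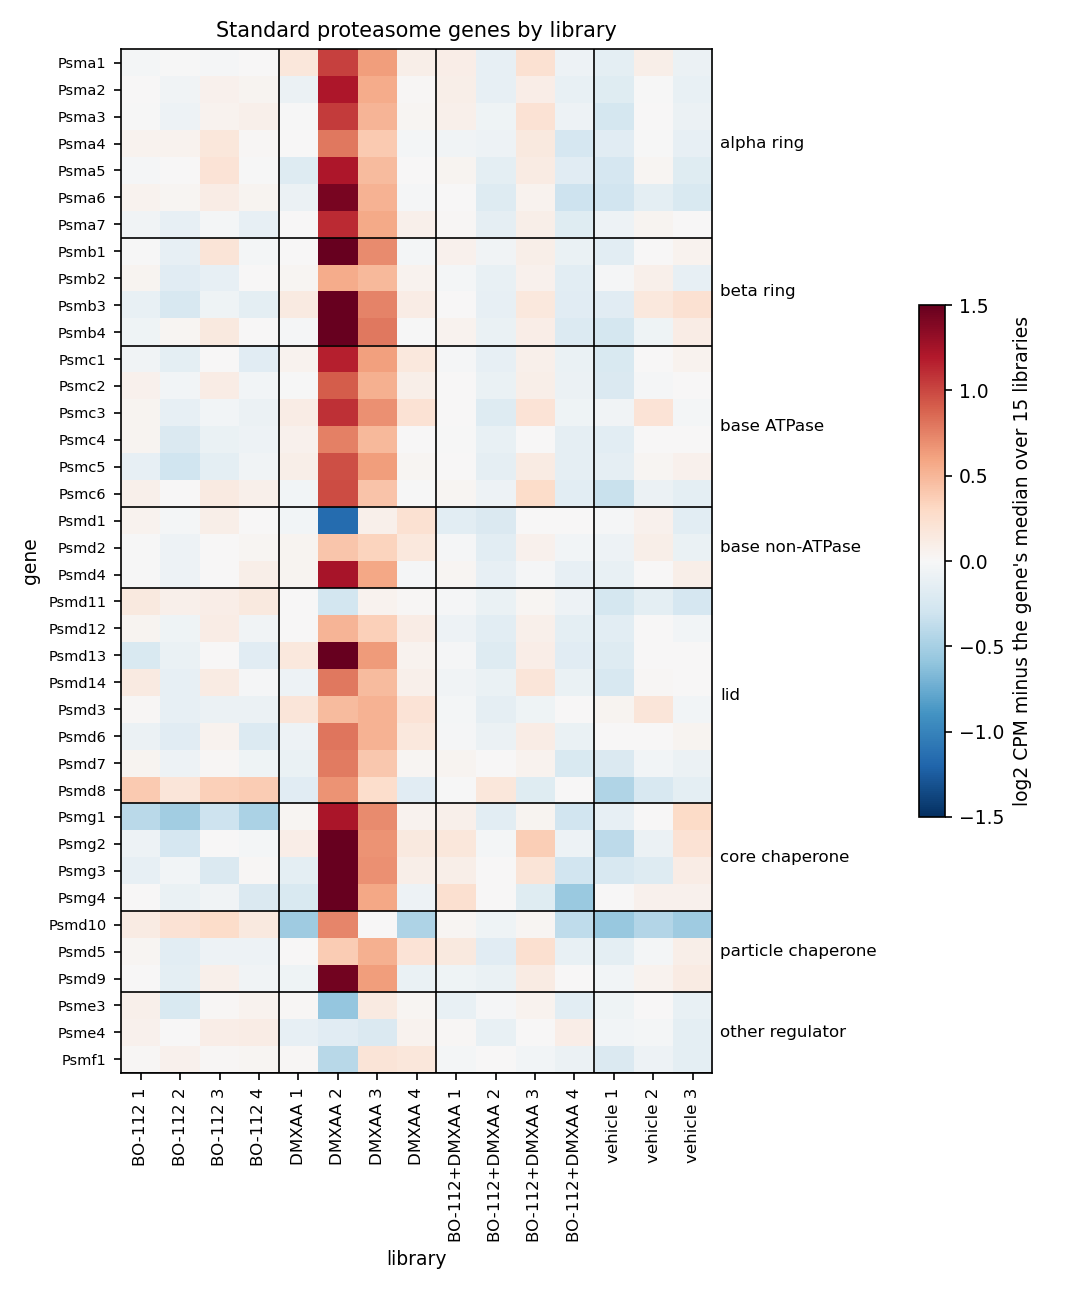
Deviation of each of the 38 genes (down the page, by class) from its own median over 15 libraries (across), in log2 CPM; red is higher and blue lower, with the colour scale held at 1.5 and -1.5. The columns of DMXAA 2 and DMXAA 3 are red over nearly all genes, and the lowest cell of the map is Psmd1 in DMXAA 2. Psmd8 and Psmd10 are red in the BO-112 columns and blue in the vehicle columns. Psmg1 is blue in the BO-112 columns and closer to its median or above it in the vehicle columns.

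Outside DMXAA 2 and DMXAA 3 most members varied little between libraries. Over the other 13 libraries, which span all 4 groups, the SD of a member's log2 CPM had a median of 0.12. It was smallest in Psmd4, at 0.07, and largest in Psmd10, Psmd8 and Psmg1, at 0.32, 0.27 and 0.25. Psmd4 had 184, 176, 185 and 197 CPM with BO-112, 189.9, 436, 277 and 183 CPM with DMXAA, 189, 169.6, 183 and 169 CPM with both agents, and 171, 185 and 196 CPM with vehicle. Its values overlapped between all groups, and only DMXAA 2 and DMXAA 3 lay outside the range of the rest. The 3 most variable members are a base chaperone (Psmd10, also called gankyrin), a lid subunit (Psmd8) and a chaperone of the alpha ring (Psmg1). In each of them the BO-112 and vehicle tumours did not overlap. These 3 were picked for a large spread over libraries that include those tumours, and Psmd4 for a small one. Their separation or overlap thus follows in part from the choice, and how many of all genes separate these groups was not counted.

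Promoter sequences are shown for the 4 members on which the BO-112 comparisons turn (Psmd8, Psmd11, Psmd10 and Psmg1) and for the steadiest one (Psmd4). Each runs 5′ to 3′ along the gene over 300 bases, 250 before and 50 after the start, in RefSeq's GRCm38.p6 build: Psmd8 at chr7:29180624-29180923 on the minus strand, Psmd11 at chr11:80428365-80428664 on the plus strand, Psmd10 at chrX:140956662-140956961 on the minus strand, Psmg1 at chr16:95990911-95991210 on the minus strand and Psmd4 at chr3:95042565-95042864 on the minus strand. Capitals mark matches on either strand to CCAAT (read ATTGG on the other strand) or to GAAANNGAA, the core of the element bound by interferon-induced factors.
Psmd8: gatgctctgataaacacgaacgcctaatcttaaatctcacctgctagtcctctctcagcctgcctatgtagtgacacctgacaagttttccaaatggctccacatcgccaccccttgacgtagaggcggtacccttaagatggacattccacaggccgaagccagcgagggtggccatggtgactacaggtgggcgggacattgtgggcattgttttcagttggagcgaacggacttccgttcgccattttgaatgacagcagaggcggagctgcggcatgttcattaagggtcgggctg
Psmd11: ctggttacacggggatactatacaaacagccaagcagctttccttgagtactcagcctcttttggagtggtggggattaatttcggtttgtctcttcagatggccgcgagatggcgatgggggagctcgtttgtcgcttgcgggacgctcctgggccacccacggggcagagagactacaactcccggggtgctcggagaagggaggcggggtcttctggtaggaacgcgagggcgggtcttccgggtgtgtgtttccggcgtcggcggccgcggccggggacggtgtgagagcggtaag
Psmd10: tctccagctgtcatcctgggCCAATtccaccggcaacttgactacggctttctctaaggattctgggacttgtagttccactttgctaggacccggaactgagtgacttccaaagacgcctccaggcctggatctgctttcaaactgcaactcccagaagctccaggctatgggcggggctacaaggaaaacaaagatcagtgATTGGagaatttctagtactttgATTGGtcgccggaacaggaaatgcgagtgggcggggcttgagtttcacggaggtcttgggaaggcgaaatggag
Psmg1: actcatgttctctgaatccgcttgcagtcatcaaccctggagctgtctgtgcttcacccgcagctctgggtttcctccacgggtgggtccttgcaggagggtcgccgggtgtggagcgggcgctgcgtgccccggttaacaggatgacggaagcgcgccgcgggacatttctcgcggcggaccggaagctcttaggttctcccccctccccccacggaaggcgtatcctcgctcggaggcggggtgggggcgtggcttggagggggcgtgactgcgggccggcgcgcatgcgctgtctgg
Psmd4: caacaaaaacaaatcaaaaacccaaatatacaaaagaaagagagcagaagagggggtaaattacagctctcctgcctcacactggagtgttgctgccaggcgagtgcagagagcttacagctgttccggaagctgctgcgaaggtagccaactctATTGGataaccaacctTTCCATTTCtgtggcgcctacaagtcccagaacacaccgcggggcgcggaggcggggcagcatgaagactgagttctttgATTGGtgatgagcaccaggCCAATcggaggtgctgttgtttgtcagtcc
In these windows Psmd10 had 3 CCAAT matches and Psmd4 had 3 CCAAT matches and 1 GAAANNGAA match, while Psmd8, Psmd11 and Psmg1 had no match to either. The table held a promoter for 32 of the 38 members, 34 windows in all. CCAAT was found for 12 of these 32 genes (37.5%), against 41.1% of all genes in the table, and GAAANNGAA for 6 (18.8%), against 9.76%. TGACNNNGC, the antioxidant response element to which NRF1 binds, was found for 4 of 32 (Psmc6, Psmd12, Psmd9 and Psme4; 12.5%), against 14.0% of all genes. None of the 34 windows had matches of different motifs that overlap. A match describes letters and is not a binding site, and none of the 3 motifs was found in the windows of all 4 members that differ most with BO-112.

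The question for BO-112, set against vehicle, was how these genes stood after 24 h of the RNA mimic. With BO-112, 2 lid subunits rose (Psmd8 and Psmd11), and so did Psme2b, a near copy of the inducible cap gene Psme2. These were 3 of the 41 members, or 2 of the 38 that belong to the complex, with limma's adjusted p under 0.05 over all genes. No member was called lower in this fit. Across all genes 11.9% were called in this comparison, 7.64% higher and 4.31% lower, so the members' share was no larger than the background. No other gene of the complex was called, and the median log2 fold change was 0.10 over the core (0 of 11 called) and 0.02 over the particle (2 of 17), against -0.04 over all genes.

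Psmd8, which joins the lid late in its assembly, had 279, 241, 273 and 276 CPM with BO-112, 189.8, 339, 255 and 189.5 CPM with DMXAA, 213, 239.8, 188 and 213 CPM with both agents, and 156, 179.6 and 192 CPM with vehicle. All 4 BO-112 tumours lay above all 3 vehicle tumours, and the lowest BO-112 value was also above the highest with both agents. The log2 fold change of BO-112 over vehicle was 0.61 ± 0.17 (SE; adjusted p = 0.0325 by limma). The call ended in 6 of the 7 fits that left out 1 of the BO-112 or vehicle libraries, all but that without BO-112 2, and the change then ran from 0.52 to 0.67.

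Psmd11, a lid subunit that clamps the particle to the alpha ring, had 158, 151, 153 and 158 CPM with BO-112, 143, 118, 149 and 144 CPM with DMXAA, 141, 134, 146 and 135 CPM with both agents, and 119, 129 and 119.6 CPM with vehicle. All BO-112 tumours lay above every other library, vehicle lay below all tumours with both agents, and DMXAA 2 was the lowest library. The log2 fold change of BO-112 over vehicle was 0.34 ± 0.09 (SE; adjusted p = 0.0267 by limma). Without vehicle 1, vehicle 3, BO-112 1, BO-112 3 or BO-112 4 it was no longer called, at 0.32 to 0.35, and with libraries scaled by total count alone it was 0.18 (adjusted p = 0.348).

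Psmd10, the chaperone that holds the ATPase ring until the base is built, had 48.5, 52.0, 53.9 and 49.5 CPM with BO-112, 30.8, 74.3, 44.7 and 32.5 CPM with DMXAA, 45.6, 42.6, 45.4 and 34.3 CPM with both agents, and 30.1, 33.0 and 30.9 CPM with vehicle. The BO-112 and vehicle tumours did not overlap, and neither did those with both agents and vehicle. Its log2 fold change of BO-112 over vehicle, 0.70 ± 0.23 (SE), was the largest among the 38 and missed the threshold at an adjusted p of 0.0567. In the fit without DMXAA 2 and DMXAA 3 the change of 0.70 had an SE of 0.10 and an adjusted p of 0.000113.

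Psmg1, which starts alpha ring assembly together with Psmg2, had 13.4, 12.3, 14.3 and 12.7 CPM with BO-112, 17.9, 41.2, 28.9 and 18.3 CPM with DMXAA, 18.6, 15.8, 18.2 and 14.5 CPM with both agents, and 16.3, 17.6 and 21.6 CPM with vehicle. Every BO-112 tumour was below every tumour of the other groups. The log2 fold change over vehicle was -0.49 ± 0.23 (SE; adjusted p = 0.203), and without DMXAA 2 and DMXAA 3 it had an SE of 0.12 and an adjusted p of 0.00866. Its partner Psmg2 stood at 0.00 ± 0.27 (SE) in the full fit, and Psmg3 and Psmg4 at 0.02 and -0.13.

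All groups share 1 estimate of the spread, and without DMXAA 2 and DMXAA 3 the SE of each of the 6 members called then for BO-112 against vehicle was smaller. These were Psmd10, Psmd8, Psme2b, Psmd11 and the alpha subunit Psma6 (0.28 ± 0.08, adjusted p = 0.0247) as higher, and Psmg1 as lower. DMXAA 2 and DMXAA 3 stood apart in most members, so a smaller SE without them follows in part from the choice of libraries. The calls of that fit are thus no separate support. Leaving out the 4 libraries with high muscle markers takes 1 tumour from BO-112 and 1 from vehicle, and then Psme2b alone was called. That fit also leaves out DMXAA 1 and DMXAA 3 but keeps DMXAA 2, which enters the shared estimate of the spread. Whether muscle content had a part in the lost calls was not tested. The summed neutrophil markers were higher in every BO-112 tumour than in every vehicle tumour, as were 7 of the 10 genes. Clec4e alone had 275 to 329 CPM with BO-112 and 1.57 to 6.81 CPM with vehicle, and Mmp9, Trem1 and Retnlg overlapped. Their part in the member changes was not tested.

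**Figure D2:**
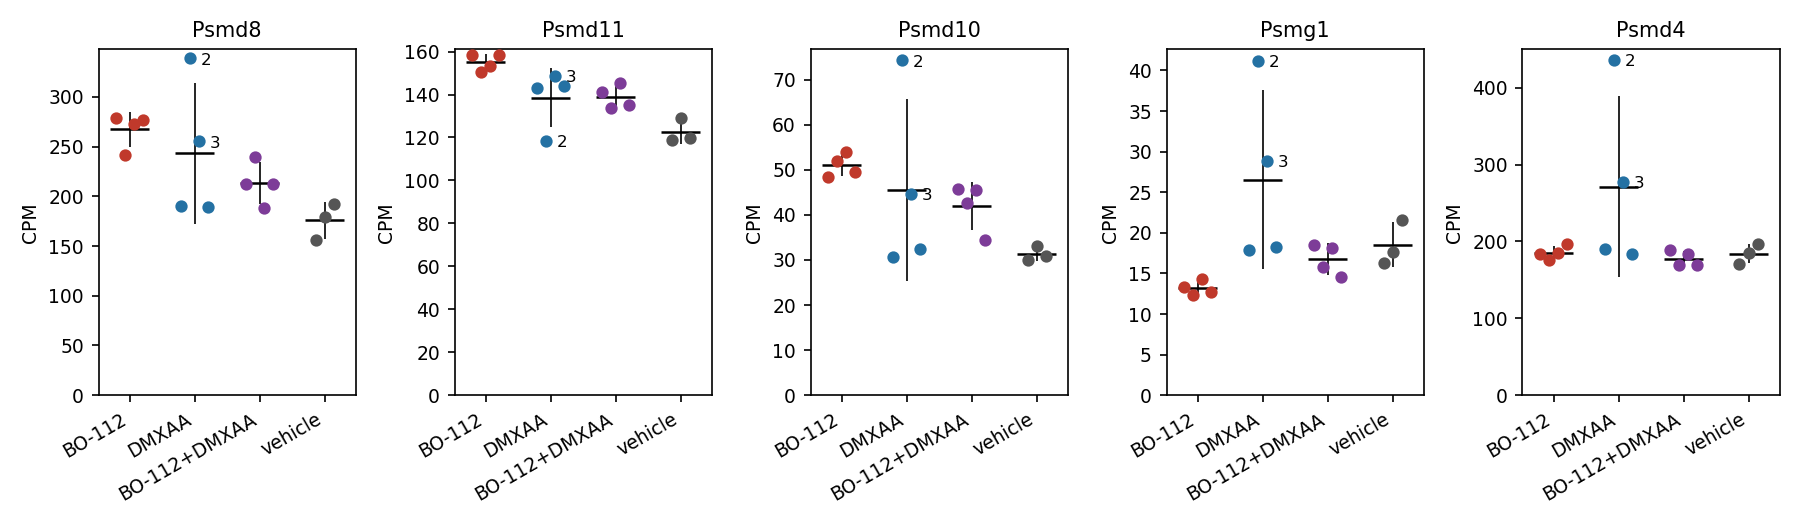
CPM per tumour (points) with group mean and SD (bars) for Psmd8, Psmd11, Psmd10, Psmg1 and, as the steadiest member, Psmd4; each vertical axis starts at 0 and DMXAA 2 and DMXAA 3 are numbered. For Psmd8, Psmd11 and Psmd10 the 4 BO-112 points lie above the 3 vehicle points, for Psmg1 they lie below them, and for Psmd4 they overlap.

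For DMXAA, set against vehicle, no member was called by limma, where 1.25% of all genes were, 1.08% higher and 0.169% lower. By the group means nearly the whole complex was higher with DMXAA, in 35 of the 38 members, with a median log2 fold change of 0.53 over the core, 0.39 over the particle and 0.44 over the chaperones, against 0.01 over all genes. At an unadjusted p under 0.05 there were 26 of these 38, and 3204 of all 17712 genes, and the smallest adjusted p of the 38 was 0.179.

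The higher means rested on 2 of the 4 tumours. Psmb4, a structural beta subunit, had 207, 735, 361 and 208 CPM with DMXAA and 173, 200.0 and 225 CPM with vehicle. Psmg3, a chaperone of the alpha ring with the largest mean change (0.81 ± 0.38 SE, adjusted p = 0.28), had 11.6, 58.2, 20.6 and 13.6 CPM with DMXAA and 10.9, 11.3 and 13.8 CPM with vehicle. In both genes DMXAA 2 was highest and DMXAA 3 next, and DMXAA 1 and DMXAA 4 lay within the range of the vehicle tumours. Without DMXAA 2 and DMXAA 3 the median change was 0.06 over the core and 0.12 over the particle, and no member was called.

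**Figure D3:**
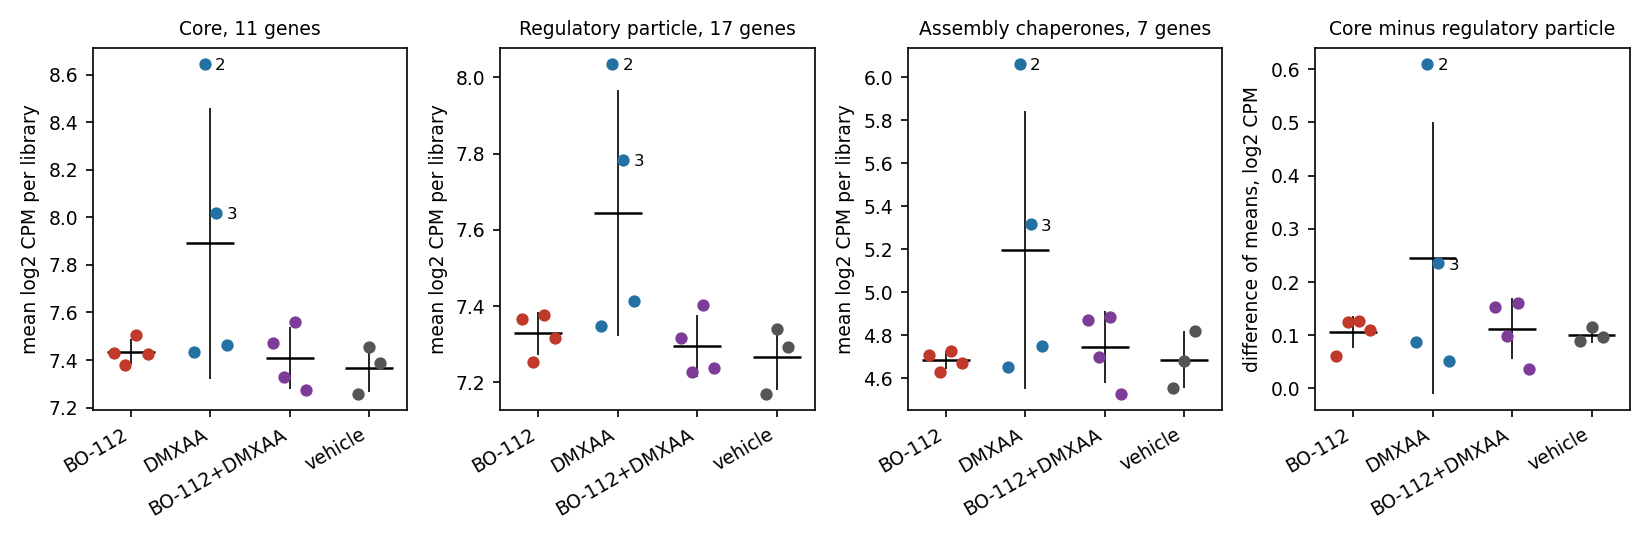
Mean log2 CPM over the genes of each class per library (points), with the group mean and SD (bars), and the core mean minus the particle mean; the vertical axes do not start at 0 and DMXAA 2 and DMXAA 3 are numbered. DMXAA 2 (8.64 for the core, 8.03 for the particle, 6.06 for the chaperones) and DMXAA 3 (8.02, 7.78 and 5.32) lie above all other libraries.

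The mean log2 CPM over the core was 7.38 to 7.50 with BO-112, 7.43, 8.64, 8.02 and 7.47 with DMXAA, 7.27 to 7.56 with both agents and 7.26 to 7.45 with vehicle. Over the particle it was 7.25 to 7.38 with BO-112, 7.35, 8.03, 7.78 and 7.41 with DMXAA, 7.23 to 7.40 with both agents and 7.17 to 7.34 with vehicle. Over the chaperones it was 4.63 to 4.73 with BO-112, 4.65, 6.06, 5.32 and 4.75 with DMXAA, 4.53 to 4.89 with both agents and 4.56 to 4.82 with vehicle. Outside DMXAA 2 and DMXAA 3 the groups overlapped for the core and the chaperones, while for the particle DMXAA 1 and DMXAA 4 lay above all 3 vehicle tumours. Of the 38 members, 33 were higher in DMXAA 2 than in all of the other 13 libraries, and 33 were in DMXAA 3. The median deviation from the mean of those 13 was 1.00 on the log2 scale in DMXAA 2 and 0.54 in DMXAA 3.

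The deviation in these libraries went along with transcript length among the members. Across the 38 genes, which share the 2 libraries and are not independent, its Pearson correlation with log2 length was -0.64 in DMXAA 2 and -0.63 in DMXAA 3. Psmg3 (883 bp), Psmb4 (1183 bp) and Psmd13 (1989 bp), a lid subunit, deviated most in DMXAA 2, by 2.24, 1.84 and 1.83. Psmd13 shares 342 bp of exon with Sirt3 on the opposite strand, and Psmg3 shares 280 bp with Gm26938 on the same strand. The 5 members that were lower there have transcripts of 2664 bp (Psme3) or longer, namely Psmd1 (-1.14), Psme3 (-0.55), Psmf1 (-0.40), Psmd11 (-0.25) and Psme4 (-0.16). Annotated length did not order all members, since Psma2 and Psma3 at 2911 and 2846 bp deviated by 1.24 and 1.06. These are lengths of the longest principal transcript, and the lengths expressed in the tumours were not measured. After each library's trend of all genes on length was removed, the core mean was 8.09 in DMXAA 2 and 7.75 in DMXAA 3, against 7.29 to 7.59 in the other libraries.

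**Figure D4:**
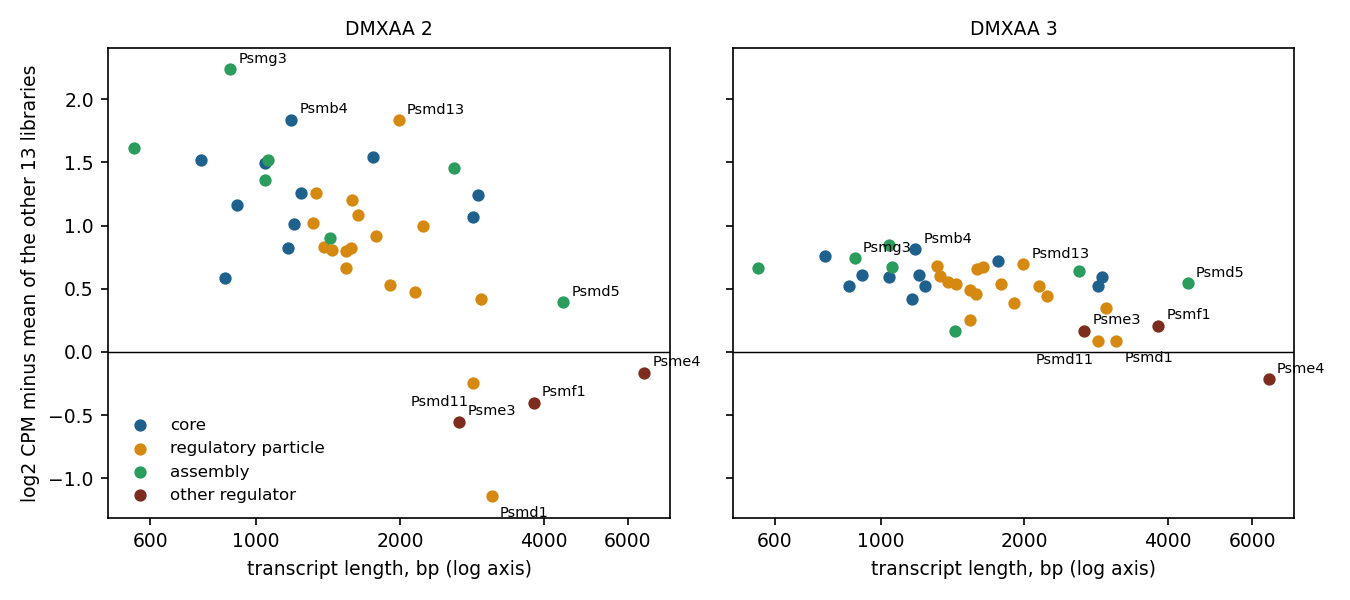
Log2 CPM in DMXAA 2 (left) and DMXAA 3 (right) minus the mean of the other 13 libraries, for the 38 members (points, coloured by class), against transcript length in bp on a log axis. Short genes lie high and the genes below 0 in DMXAA 2 have transcripts of 2664 bp or longer, with Psmd1 lowest at -1.14.

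Psmd1, the scaffold of the base, had 189, 179, 194 and 182 CPM with BO-112, 177, 81.9, 192 and 214 CPM with DMXAA, 164, 158, 184 and 183 CPM with both agents, and 180.5, 191 and 164 CPM with vehicle. DMXAA 2 was the lowest library by far and DMXAA 4 the highest. The log2 fold change of DMXAA over vehicle was -0.19 ± 0.23 (SE; adjusted p = 0.651), and its sign rested on DMXAA 2, without which it was 0.12. Psmd1 shares 252 bp of exon with Htr2b on the opposite strand and 301 bp with Gm21972 on the same strand, and the strand setting of the counting is not given in the sources used here. DMXAA 2 also differed in cell type markers, with macrophage markers summing to 5482 CPM, against 2516 to 3589 CPM in the other libraries. The complement genes C1qa, C1qb and C1qc carried that sum (2337, 1315 and 1106 CPM), while Cd68 was at its lowest of all libraries (84.8 CPM), and Csf1r (276 CPM) and Adgre1 (171 CPM) lay within the range of the others. Fibroblast markers summed to 2653 CPM there, against 4177 to 8365 CPM, and 4 of the 5 (all but Dcn) were at their lowest. The part of these differences in the members' levels was not tested.

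With both agents against vehicle, the question is whether the combination moved the complex. This comparison shares the vehicle tumours with those of BO-112 and of DMXAA above. No member was called by limma, against 2.67% of all genes, 2.49% higher and 0.181% lower, and 1 of the 41 members and 2034 of all genes were at an unadjusted p under 0.05. The median log2 fold change was 0.04 over the core and -0.01 over the particle, and -0.01 over all genes. Among the 38, Psmd10 (0.41 ± 0.23 SE, adjusted p = 0.553) had the largest positive change and Psmg4 (-0.16 ± 0.31 SE) the largest negative one. The 95% intervals of the 38 had a median half-width of 0.41, with a lowest limit of -0.83 and a highest limit of 0.92. For each gene, a change inside its own interval was not excluded. Without DMXAA 2 and DMXAA 3, 1 member was called, Psmd10 (0.41 ± 0.10 SE, adjusted p = 0.0186).

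**Figure D5:**
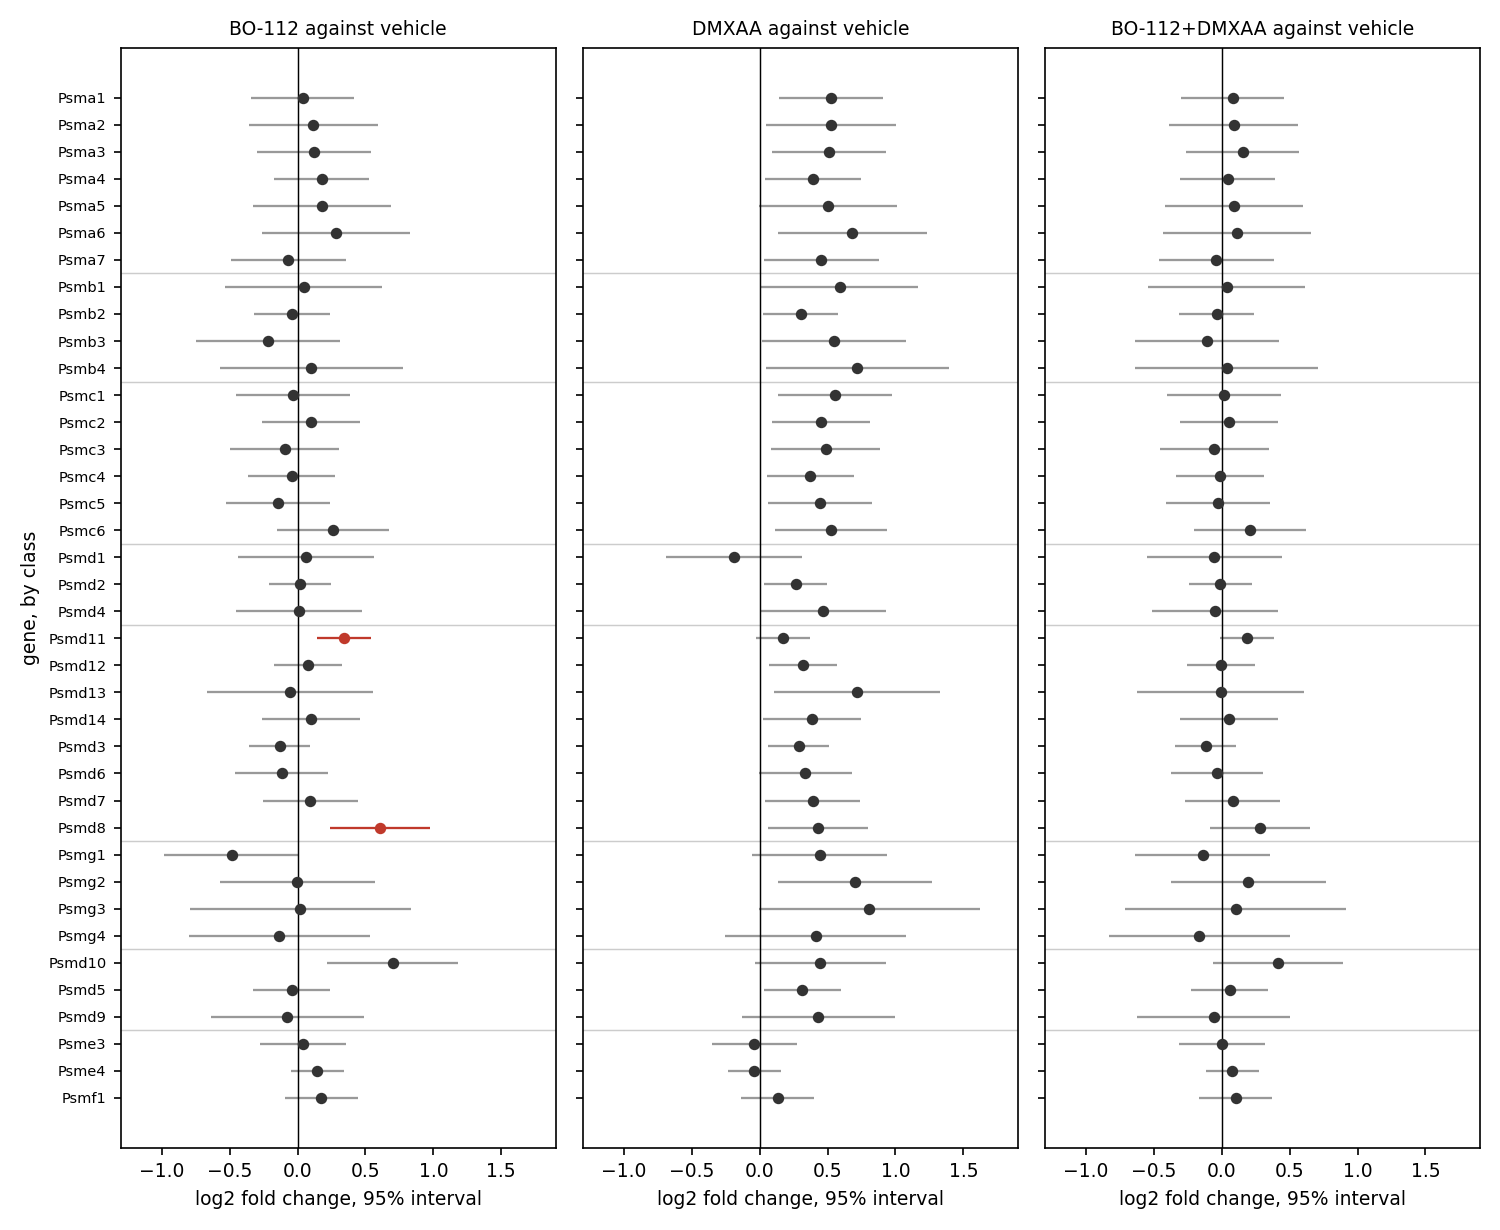
Log2 fold change over vehicle (points) with its 95% interval from limma (lines) for the 38 members, for BO-112, DMXAA and both agents; red marks an adjusted p under 0.05 over all genes. Psmd11 and Psmd8 are the red points under BO-112, and nearly all points under DMXAA lie right of 0 with intervals reaching close to or past it.

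With both agents against BO-112, which asks what adding DMXAA to BO-112 did, no member was called by limma. No gene of the whole table was called either (0% of 17712, with 1690 at an unadjusted p under 0.05), and none of the 41 members was at an unadjusted p under 0.05. The median log2 fold change was -0.01 over the core and -0.03 over the particle. By their group means the 4 members whose promoters are shown for BO-112 lay between BO-112 and vehicle when both agents were given, with Psmd8 at -0.33 ± 0.16 (SE) against BO-112, Psmd10 at -0.29 ± 0.21, Psmd11 at -0.16 ± 0.09 and Psmg1 at 0.35 ± 0.22. Their adjusted p values were 0.55, 0.748, 0.601 and 0.676. These 4 were picked for their difference between BO-112 and vehicle, so a place between those groups follows in part from the choice.

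Adding BO-112 to DMXAA, with both agents set against DMXAA, called no member by limma, where 0.886% of all genes were called, 0.717% higher and 0.169% lower. At an unadjusted p under 0.05 there were 22 of the 41 members and 4239 of all genes. The median was -0.45 over the core and -0.37 over the particle, and 34 of the 38 had a negative sign. The smallest adjusted p among them was that of Psmd3, a lid scaffold, at 0.064. It had 228, 212, 223 and 233 CPM with both agents and 264, 325, 335 and 269.7 CPM with DMXAA. These groups did not overlap, and DMXAA 2 and DMXAA 3 were again the highest. The count depended on the DMXAA libraries, with 14 members called as lower without DMXAA 1 and 10 without DMXAA 4. Without DMXAA 2 and DMXAA 3 none was called and the median over the particle was -0.09.

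BO-112 against DMXAA compares the 2 single agents, which share no sample but share the estimate of the spread. With BO-112, 10 of the 41 members were lower and none higher, while 21.4% of all genes were called, 11.2% higher and 10.2% lower. Of the 10, 2 were core subunits (Psma1 and Psmb3), 4 were ATPases (Psmc1, Psmc3, Psmc4 and Psmc5), 2 were lid subunits (Psmd3 and Psmd6), and the others were Psmg1 and Psmc3ip. Psmg1 had a log2 fold change of -0.93 ± 0.22 (SE; adjusted p = 0.00968 by limma), with no overlap in the values given above. Psmd3 had 235, 214, 219.7 and 219 CPM with BO-112, below all 4 DMXAA tumours, at -0.42 ± 0.10 (SE; adjusted p = 0.00979).

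Psmc5, an ATPase of the base, had 159, 141, 158 and 167 CPM with BO-112 and 186, 339.8, 269 and 178 CPM with DMXAA (-0.59 ± 0.17 SE, adjusted p = 0.0251). Psmb3 had 142, 129.8, 146 and 138 CPM with BO-112 and 169, 435, 256 and 166 CPM with DMXAA (-0.77 ± 0.23 SE, adjusted p = 0.0315). In both the groups did not overlap, but DMXAA 1 and DMXAA 4 lay near the BO-112 tumours. The count ran from 2 without DMXAA 3 to 28 without DMXAA 1, it was 22 without DMXAA 4, and it was 3 or 4 without any 1 of the BO-112 tumours. Without DMXAA 2 and DMXAA 3 together 4 members were called, Psmd10 (0.69 ± 0.11 SE), Psmd8 (0.49 ± 0.11) and Psme2b (0.77 ± 0.18) as higher and Psmg1 (-0.46 ± 0.14) as lower with BO-112. Only Psmg1 belonged to both sets of calls.

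Core and particle were compared within each library, since the full complex needs both. The core mean less the particle mean, on the log2 CPM scale, was 0.06, 0.13, 0.13 and 0.11 with BO-112, 0.09, 0.61, 0.24 and 0.05 with DMXAA, 0.15, 0.10, 0.16 and 0.04 with both agents, and 0.09, 0.12 and 0.10 with vehicle. All groups overlapped, and DMXAA 2 and DMXAA 3 had the highest values. Group means were 0.11 ± 0.03 (SD, n = 4) with BO-112, 0.25 ± 0.26 (SD, n = 4) with DMXAA, 0.11 ± 0.06 (SD, n = 4) with both agents and 0.10 ± 0.01 (SD, n = 3) with vehicle. The core transcripts were shorter, with a median of 1183 bp against 1636 bp for the particle. With the length trend removed, DMXAA 2 was at 0.39 and DMXAA 3 at 0.14, inside the 0.07 to 0.19 of the other libraries only for DMXAA 3.

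For BO-112 against vehicle the range of changes was wider in the lid and the chaperones than in the rings and the base. The lid ran from -0.13 (Psmd3) to 0.61 (Psmd8) in log2 fold change and the chaperones from -0.49 (Psmg1) to 0.70 (Psmd10). The alpha ring ran from -0.07 (Psma7) to 0.28 (Psma6), the beta ring from -0.22 (Psmb3) to 0.10 (Psmb4) and the ATPases from -0.15 (Psmc5) to 0.26 (Psmc6). Among the other regulators no change was called, with Psme3 at 0.04 ± 0.15, Psme4 at 0.14 ± 0.09 and Psmf1 at 0.18 ± 0.13 (SE). For DMXAA against vehicle the base subunits other than ATPases had a wider range (-0.19 to 0.47) than the lid (0.17 to 0.72) or the chaperones (0.31 to 0.81). The low end of that range was Psmd1, which was at 0.12 without DMXAA 2. Whether the spread differed between classes was not tested.

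The interaction asks whether the change of both agents over BO-112 differs from that of DMXAA over vehicle. No member was called, where 239 of 17712 genes were, and 9 of the 41 were at an unadjusted p under 0.05 against 2605 of all genes. The sign was negative in 38 of 41, and the smallest adjusted p was that of Psmd8 (-0.76 ± 0.24 SE, adjusted p = 0.14), followed by Psme2b (-0.95 ± 0.32, adjusted p = 0.181) and Psmd11 (-0.33 ± 0.13, adjusted p = 0.245). The DMXAA group, with its 2 libraries that stand apart, enters this contrast.

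Of the 3 genes outside the standard complex, Psme2b had 31.5, 40.0, 36.0 and 31.8 CPM with BO-112, 19.5, 42.3, 23.6 and 21.1 CPM with DMXAA, 22.7, 25.7, 29.0 and 26.3 CPM with both agents, and 19.9, 21.5 and 12.5 CPM with vehicle. BO-112 and vehicle did not overlap, and the log2 fold change was 0.98 ± 0.24 (SE; adjusted p = 0.0129), a call that ended only without vehicle 3 among the fits that left out 1 library. Over 794 of its 837 bp the Psme2b transcript is 99.4% identical to Psme2, so reads of these genes are hard to tell apart and the level of Psme2b is uncertain. Psme2b also shares 41 bp of exon with 9930111J21Rik1 on the same strand. Psme2 itself had 334, 391, 387 and 336 CPM with BO-112 and 218, 257 and 215 CPM with vehicle (0.66 ± 0.31 SE, adjusted p = 0.199).

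Psmc3ip, which is named for an interaction with Psmc3 and acts in meiotic recombination, had 11.2, 10.2, 12.9 and 11.3 CPM with BO-112 and 13.3, 23.1, 18.7 and 15.8 CPM with DMXAA (-0.61 ± 0.16 SE, adjusted p = 0.0166). The groups did not overlap, DMXAA 2 and DMXAA 3 were the highest libraries, and the call was lost without DMXAA 2 and DMXAA 3 (-0.35, adjusted p = 0.133). Psmc3ip shares 385 bp of exon with Mlx on the opposite strand. Psma8, the alpha subunit of the testis, was at 0.0957 to 0.366 CPM with BO-112, 0.405 to 0.717 CPM with DMXAA, 0.183 to 0.656 CPM with both agents and 0.326 to 0.575 CPM with vehicle. At these levels its largest change (-1.28 ± 0.49 SE, BO-112 against DMXAA) was not called, with an adjusted p of 0.0718.

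The 8 catalytic and cap subunits left out by the rule showed no call in any of the 6 comparisons, with a median log2 fold change over vehicle of 0.60 with BO-112, 0.72 with DMXAA and 0.32 with both agents. Their mean log2 CPM was 7.32, 8.83, 7.95 and 7.26 with DMXAA and 7.09, 7.36 and 7.05 with vehicle, so that DMXAA 2 and DMXAA 3 again stood highest and DMXAA 1 and DMXAA 4 lay within the vehicle range. For BO-112 over vehicle the log2 fold change was 0.63 ± 0.27 (SE) for the inducible Psmb8, 0.63 ± 0.29 for Psmb9 and 0.57 ± 0.35 for Psmb10. It was 0.67 ± 0.22 for the cap Psme1, and 0.15, 0.11 and 0.02 for the constitutive Psmb5, Psmb6 and Psmb7. The smallest adjusted p of the 8 was 0.0594 by limma, and whether inducible and constitutive genes differed was not tested.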

How the data were processed

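The authors deposited log2 CPM values per gene and library, made with STAR on mm39, edgeR and limma, per the submitters' processing notes. Whole reads were recovered for 100% of values (tolerance 1e-06, after taking off the 0.5 reads added before the log), which gave the 12725316 to 19660511 reads per library. A table of raw counts with 15 columns without sample names was not used, so no count test was run on it. Of 17712 genes, 17636 had a symbol and 76 did not. The deposited log2 CPM values were fitted over all 4 groups with limma 3.58.1 in R 4.3.3 (trend and robust options), with Benjamini-Hochberg adjustment over all 17712 genes and a threshold of 0.05. The code was tested on simulated data. CPM printed here is 2 to the power of the log2 value. The 95% intervals are limma's.

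Transcript length is that of the longest principal transcript in GENCODE M21, and promoters are RefSeq's. The kit kept strand, but the counting's strand setting is not given in the sources used here, and 10 members share exon bases with another gene, 5 of them with a gene in the table.

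Members and lists were chosen with earlier results of these data known. Named members are, per comparison, the 4 with the smallest adjusted p in each direction among those called and the largest change in each direction, per class the highest and lowest level per length, and the genes outside the complex. The others named, among them Psma6, Psmd10 beyond that rule and the Psmg2 to Psmg4 values, were chosen after their values were seen. Alternatives were 2 other scalings, 2 reads added, a filter of 1 CPM in 4 libraries (14514 genes), limma-voom, a fit of the 2 compared groups, a replicate block, array weights, removal of the length trend, and leaving out each library, DMXAA 2 and DMXAA 3, or the 4 libraries high in muscle genes.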

Additional observations from a re-analysis of the deposited data

Results flagged for a closer look

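The log2 CPM of Psmd8 in BO-112 2 was 7.915, below the 8.091 to 8.122 of the other BO-112 tumours. Its gap to the nearest of them was 0.848 of the range of the 4 values, above Dixon's 95% critical value for 4 values. This was 1 of 63 groups tested, and chance gives about 1 in 20. Psmd8 in BO-112 2 was still above all vehicle tumours.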

How the results depend on the processing

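Scaling by geometric-mean ratios, 2 reads added, the 1 CPM filter and limma-voom kept every count of members called within 1.5 times. The 3 calls for BO-112 against vehicle became 7 in a fit of these 2 groups (6 higher, 1 lower), 5 with array weights (4 higher, 1 lower) and 5 with the length trend removed. They became 6 without DMXAA 2 and DMXAA 3 (5 higher, 1 lower), 1 without the 4 muscle-rich libraries, and 0 to 5 with 1 library left out (0 without vehicle 3). The lower gene in these 3 fits was Psmg1. With total-count scaling Psmg1 was also called lower (-0.64, adjusted p = 0.0396 by limma), and Psmd11 was not called. The 10 for BO-112 against DMXAA became 20 with total-count scaling, 0 in the fit of 2 groups, 6 with array weights (3 higher, 3 lower), 4 without DMXAA 2 and DMXAA 3, 0 without the muscle-rich ones, and 2 to 28 with 1 left out. With both agents, 1 member was called over vehicle with array weights and 1 without DMXAA 2 and DMXAA 3, and 0 to 14 against DMXAA with 1 left out.

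Total-count scaling moved every gene by -0.16 for BO-112 against vehicle, so the core median became -0.0566 and the particle median -0.14, and the particle median of both agents against BO-112 became 0.0626. The core median for BO-112 against vehicle was 0.0041 to 0.121 with 1 left out, and core less particle was 0.0564 with the length trend removed. Without DMXAA 2 and DMXAA 3 the core and particle medians were 0.0636 and 0.12 for DMXAA against vehicle and 0.0269 and -0.066 for BO-112 against DMXAA, and the particle median was -0.0921 for both agents against DMXAA. Psmd1, at -0.19 for DMXAA against vehicle, turned to 0.0946 with array weights and 0.13 without DMXAA 2 and DMXAA 3, and ran from -0.3405 to 0.1224 with 1 left out. For both agents against DMXAA, at 0.14, it turned to -0.19 and -0.18, and ran from -0.1758 to 0.2871. Where no construction shows it, the cause was not tested.

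The replicate block left the counts at 3, 0, 0, 0, 0 and 10, and ended the calls of Psmd11 (adjusted p = 0.0568 by limma) and Psmc4 (adjusted p = 0.052), while Psmd10 for BO-112 against vehicle (0.78, adjusted p = 0.0303) and Psmd13 for BO-112 against DMXAA (-0.78, adjusted p = 0.0437) were called in their place. Deviations of libraries with the same number had a mean correlation of 0.0152 over 21 pairs (-0.212 to 0.255), against -0.0051 over 63 other pairs. The labels do not say that a number links libraries. These correlations over few libraries cannot show whether a batch or animal was shared.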

Other observations

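Genes that act beside the complex were described from a list of 32, of which 31 were measured, chosen with earlier results of these data known. With BO-112 against vehicle 4 of 31 rose and none fell, a share near the 11.9% of all genes called, with a median log2 fold change of 0.12. Nfe2l2, the regulator of the oxidative stress response, had 209, 231, 215 and 196 CPM with BO-112, 125, 152, 130.2 and 129 CPM with DMXAA, 169, 197, 153 and 181 CPM with both agents, and 124, 132 and 108 CPM with vehicle. Its BO-112 tumours lay above all DMXAA and vehicle tumours, at 0.81 ± 0.11 (SE; adjusted p = 0.000227 by limma) over vehicle, and it was the only gene of the list called with both agents over vehicle (0.52 ± 0.11 SE, adjusted p = 0.0185). Nfe2l1, the activator of proteasome genes, had 685, 664, 656 and 581 CPM with BO-112 and 487, 486 and 523 CPM with vehicle, with no overlap (0.37 ± 0.11 SE, adjusted p = 0.0419). Nub1, which brings ubiquitin-like proteins to the proteasome, was higher by 0.49 ± 0.13 (SE; adjusted p = 0.0278), and Ecpas, a proteasome adaptor, by 0.28 ± 0.08 (SE; adjusted p = 0.0396).

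With BO-112 against DMXAA, which shares the BO-112 tumours, Nfe2l2 (0.67 ± 0.10 SE, adjusted p = 0.00081), Nfe2l1 (0.59 ± 0.10, adjusted p = 0.0017), Nub1 (0.46 ± 0.12, adjusted p = 0.0211) and Ecpas (0.26 ± 0.08, adjusted p = 0.0298) were higher. Across all genes 21.4% were called there, 11.2% higher and 10.2% lower, so 6 of 31 was no more than the background. The 2 lower genes were Adrm1, a ubiquitin receptor of the particle (-0.34 ± 0.11 SE, adjusted p = 0.0496), and Ngly1, which removes sugars from NRF1 (-0.35 ± 0.12 SE, adjusted p = 0.0456). Pomp, which matures the core, had 158, 521, 262 and 159 CPM with DMXAA and 139.6, 164 and 155 CPM with vehicle. As for the core subunits, DMXAA 2 and DMXAA 3 were the highest.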
